A study of Mus musculus with 27 samples.

Results

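On day 2 of reprogramming to induced neurons (iNs), the 3 libraries labelled Per2-/- were compared with the 3 WT libraries of the same day, 6 of the 27 bulk RNA-seq libraries of the series. The members were chosen by genotype and day in the sample labels alone. Mouse embryonic fibroblasts (MEFs) were taken from WT, Per1-/- and Per2-/- embryos at mid-gestation, after removal of the head and the heart. MEFs of every group, WT included, were transduced with doxycycline-inducible lentiviruses for neuronal reprogramming factors, Brn2 and Myt1l among them, together with the transactivator M2rtTA, and were harvested on days 0, 2 and 4. The Per2-/- mice were homozygous for Per2tm1Drw, a germline allele of the strain B6.129-Per2tm1Drw/J, and the WT mice were obtained by breeding in the same study. Embryos were pooled, their sex was not determined, and the cultures also held macrophages. The labels call the 3 libraries of a group biological replicates but do not say which embryos each came from, so p-values measure spread between libraries. In the main limma fit, standard errors (SE), intervals and p-values used the spread within groups pooled over all 27 libraries in 9 groups. They do not rest on the spread of the 6 compared libraries alone. The n given with an SE counts only the libraries compared.

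PER2 is a repressor of the circadian clock. The activators CLOCK and BMAL1 (encoded by Arntl) bind E-boxes and switch on Per and Cry genes as well as output genes such as Dbp and Tef, and the PER and CRY proteins then enter the nucleus and switch the activators off. The comparison addresses whether cells with the Per2-/- label differed from WT cells early in reprogramming, and how far.

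Per2 itself, the targeted gene, goes first. Its transcript level was not lower in the libraries labelled Per2-/- but higher. Its level was 1.55, 1.78 and 1.39 FPKM (fragments scaled to gene length and library size) in the WT libraries, and 2.77, 2.97 and 2.75 FPKM in the libraries labelled Per2-/-. The groups did not overlap. The log2 fold change was 0.82 ± 0.13 (SE, n = 3 and 3, limma on log2(FPKM + 0.1), adjusted p = 0.0191). Leaving out 1 library ended the call for 5 of the 6 libraries, all but WT replicate 2, with adjusted p up to 0.267. On day 0 the log2 fold change of Per2 was 1.03 and passed (limma, adjusted p = 0.00114), and on day 4 it was 0.68 and did not (adjusted p = 0.223). Reads were counted per gene and over all exons, so a transcript that lacks some exons still counts to Per2, and the protein was not measured in these data. The values therefore do not test whether PER2 was lost. The group is named by its label throughout, and every direction below is that of the label.

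Of 14932 genes tested, 4 were called, that is, had an adjusted p up to 0.05 and differed by 0.58 or more on the log2 scale, which is 0.0268% of the genes. These were D2hgdh, Per2, Tmem37 and mt-Tv. D2hgdh was lower and Per2, Tmem37 and mt-Tv were higher in the libraries labelled Per2-/-, so 0.0067% of tested genes were called lower and 0.0201% higher. D2hgdh, Per2 and Tmem37 lie on chromosome 1 and mt-Tv on the mitochondrial genome. None of the 4 overlaps another gene of the annotation. Depth was 16270681 to 24264097 fragments on genes per library, and 23001 to 23948 genes had at least 1 fragment.

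**Figure D1:**
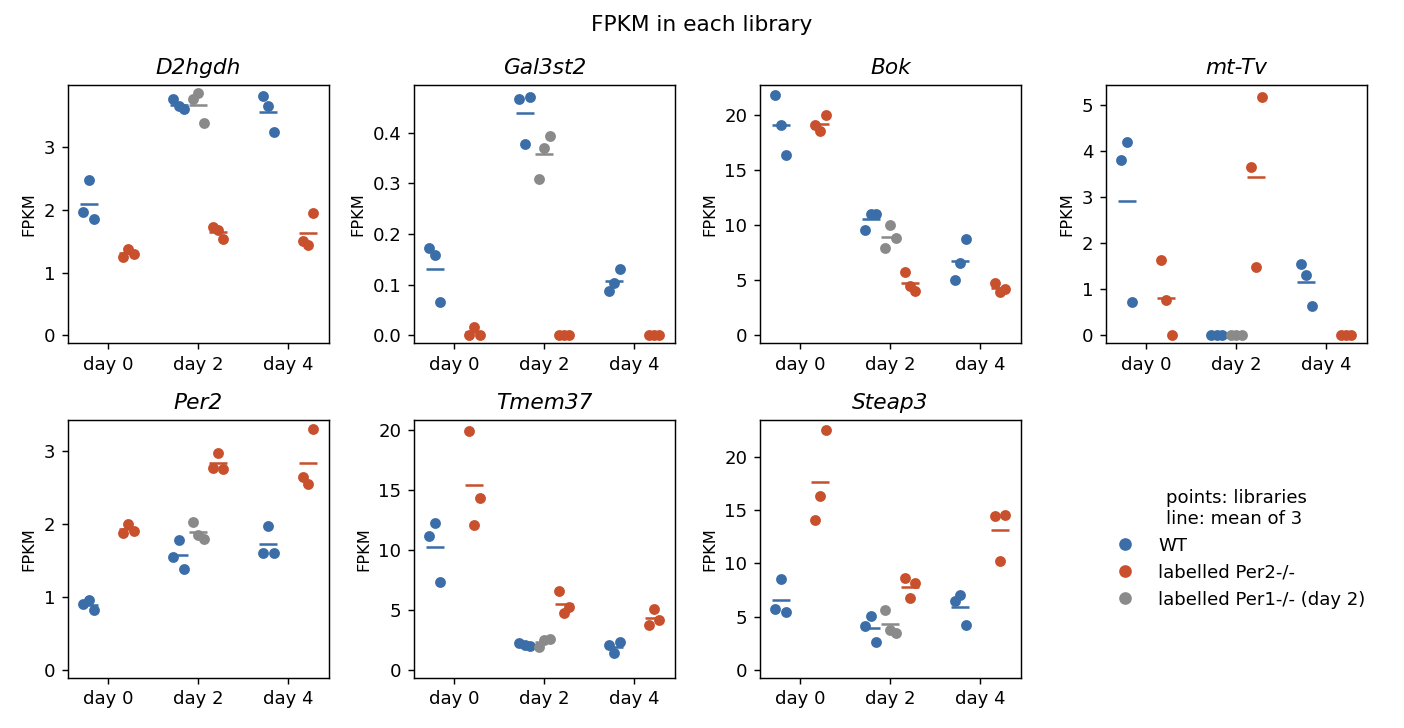
FPKM of 7 genes in each library (points) with the mean of 3 (lines), for WT cells and cells labelled Per2-/- on days 0, 2 and 4 and cells labelled Per1-/- on day 2. D2hgdh, Gal3st2, Per2 and Steap3 keep the groups apart on all 3 days, Bok does so on days 2 and 4 and not on day 0, and mt-Tv changes its direction between days.

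D2hgdh encodes the mitochondrial dehydrogenase that oxidizes D-2-hydroxyglutarate to 2-oxoglutarate. The gene (ENSMUSG00000073609) spans chr1:93824909-93852348 on the plus strand of GRCm38, the build of the files. Its level was 3.78, 3.66 and 3.61 FPKM in WT libraries and 1.73, 1.68 and 1.54 FPKM in libraries labelled Per2-/-. Behind these values were 271 to 419 fragments in WT libraries and 129 to 147 in the others. The lowest WT library stood far above the highest library of the other group. The log2 fold change was -1.11 ± 0.12 (SE, n = 3 and 3, limma, adjusted p = 0.000158), so the level was 0.462 of that in WT cells. D2hgdh stayed called whichever library was left out (adjusted p 0.00113 to 0.00326), but not when only the 6 libraries were fitted (adjusted p = 0.112) or with a replicate block in the 9 libraries of day 2 (adjusted p = 0.105), at the same fold change. The libraries labelled Per1-/- of day 2 had 3.77, 3.87 and 3.38 FPKM and lay with WT. Against them, the libraries labelled Per2-/- differed by a log2 fold change of -1.11 (limma, adjusted p = 0.000173). This comparison and the one with WT share the libraries labelled Per2-/-.

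The other days were compared for D2hgdh too. On day 0 the WT libraries had 1.96, 2.47 and 1.86 FPKM and the libraries labelled Per2-/- had 1.25, 1.38 and 1.30 FPKM. The log2 fold change was -0.63 and missed the threshold (adjusted p = 0.118). On day 4 the values were 3.83, 3.65 and 3.24 FPKM against 1.499, 1.45 and 1.95 FPKM. This difference passed, with a log2 fold change of -1.09 (adjusted p = 0.000221). Between days 0 and 2 the mean of WT libraries went from 2.10 to 3.68 FPKM and that of the libraries labelled Per2-/- from 1.31 to 1.65 FPKM. The test of the change in the difference from day 0 to day 2 did not pass (log2 difference -0.48, adjusted p = 1.00).

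Gal3st2, which encodes a galactose-3-O-sulfotransferase, is the next gene described, although its mean over the 27 libraries was 0.147 FPKM, below the 0.5 FPKM that a gene needed to be tested. It was singled out after its values were seen, as the only untested gene with 0 fragments in one group and over 3 fragments in each library of the other. The gene (ENSMUSG00000094651, chr1:93861306-93876494, plus strand) starts 8.96 kb beyond the end of D2hgdh. The WT libraries held 37, 20 and 28 fragments (0.466, 0.378 and 0.470 FPKM). All 3 libraries labelled Per2-/- held 0. With a floor of 3 fragments over the group, Gal3st2 was at least 26.6-fold lower than in WT cells. The libraries labelled Per1-/- held 68 fragments in all. On days 0 and 4 together, the 6 libraries labelled Per2-/- held 1 fragment, and the WT libraries held 4 to 10 each. Because these values chose the gene, no test is given.

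Bok, a member of the BCL-2 family that promotes cell death, came next in p after the called genes and missed the threshold (limma, adjusted p = 0.0663). The gene (ENSMUSG00000026278) spans chr1:93685660-93695764 on the plus strand, 2.27 Mb from the start of Per2 and close to D2hgdh. Its level was 9.59, 11.0 and 11.0 FPKM in WT libraries and 5.76, 4.46 and 3.99 FPKM in libraries labelled Per2-/-. The groups did not overlap, and the log2 fold change was -1.15 ± 0.21 (SE, n = 3 and 3). On day 0 they overlapped, with 21.8, 19.1 and 16.4 FPKM against 19.0, 18.5 and 19.9 FPKM. On day 4 the log2 fold change was -0.61 (adjusted p = 1.00). The libraries labelled Per1-/- had 7.90, 9.97 and 8.80 FPKM on day 2, which overlapped WT and lay above the libraries labelled Per2-/-.

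Tmem37 encodes a transmembrane protein related to the gamma subunits of calcium channels. The gene (ENSMUSG00000050777) spans chr1:120067377-120074074 on the minus strand, 28.7 Mb from the start of Per2. Its level was 2.27, 2.07 and 2.04 FPKM in WT libraries and 6.59, 4.73 and 5.26 FPKM in libraries labelled Per2-/-. The lowest library of the second group was above the highest of the first. The log2 fold change was 1.32 ± 0.22 (SE, n = 3 and 3, limma, adjusted p = 0.0351). The call was lost whichever of the 6 libraries was left out (adjusted p 0.0831 to 0.267). The libraries labelled Per1-/- had 1.93, 2.55 and 2.61 FPKM and lay near WT.

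Tmem37 was also higher on average on days 0 and 4. On day 0 it was more abundant in both groups, at 11.2, 12.3 and 7.34 FPKM against 19.97, 12.1 and 14.4 FPKM, and the groups overlapped. On day 4 it was 2.08, 1.44 and 2.35 FPKM against 3.80, 5.09 and 4.19 FPKM, without overlap. Neither day passed the threshold, with log2 fold changes of 0.59 (adjusted p = 1.00) and 1.13 (adjusted p = 0.250).

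Steap3, an endosomal ferrireductase of iron uptake, starts 28.8 Mb from the start of Per2 and close to Tmem37. Its level on day 2 was 4.09, 5.04 and 2.60 FPKM in WT libraries and 8.60, 6.75 and 8.15 FPKM in libraries labelled Per2-/-. The groups did not overlap on day 2, nor on day 0 (5.44 to 8.58 against 14.1 to 22.5 FPKM) or day 4 (4.19 to 7.07 against 10.2 to 14.6 FPKM). The log2 fold changes were 1.41 on day 0, 1.03 on day 2 and 1.15 on day 4. None passed the threshold (adjusted p = 0.118, 0.904 and 0.475).

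mt-Tv, the mitochondrial tRNA for valine, is 69 bases long (ENSMUSG00000064338, MT:1025-1093). It was called from very few fragments. The WT libraries held 0, 0 and 0 fragments and the libraries labelled Per2-/- held 5, 2 and 7 (3.66, 1.49 and 5.18 FPKM). Against a floor of 3 fragments over the WT group, the pooled level was 4.96-fold higher, a ratio that was not tested. The limma log2 fold change was 4.98 (adjusted p = 0.0448). Its size depends on the pseudocount, and with a pseudocount of 1 it was 2.05. This call too was lost without any 1 of the 6 libraries (adjusted p 0.0831 to 0.454). The libraries labelled Per1-/- also held 0, 0 and 0 fragments.

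The direction of mt-Tv turned on the other days. On day 4 the WT libraries held 2, 2 and 1 fragments and the libraries labelled Per2-/- held 0, 0 and 0. On day 0 the counts were 5, 6 and 1 against 2, 1 and 0. The 18 mitochondrial tRNA genes tested together held 1022 to 1602 fragments in WT libraries and 1117 to 1247 in libraries labelled Per2-/-, and their median log2 fold change was 0.07. Libraries were made from poly-A-selected, fragmented RNA, which is not a method for tRNAs.

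**Figure D2:**
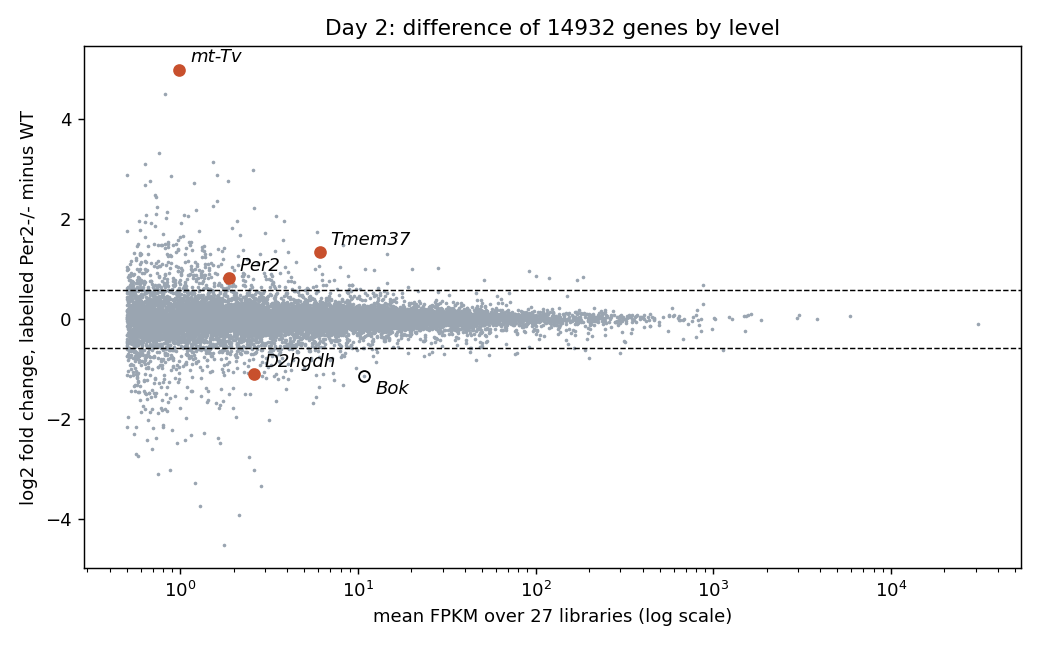
Log2 fold change of the libraries labelled Per2-/- against WT on day 2 (vertical) by mean FPKM over 27 libraries (horizontal, log scale), with each point 1 of 14932 tested genes, the 4 called genes in orange and Bok as an open circle. The dashed lines stand at 0.58 in either direction, and the spread of the points narrows as the level rises.

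Since 3 of the 4 called genes lie on chromosome 1, the genes around Per2 were described as a group. Of 61 tested genes whose start lay within 5 Mb of that of Per2, 1 was called (D2hgdh), and 6 were lower and 0 higher at an unadjusted p under 0.05, which is 9.84%. On the other chromosomes 2.74% of genes passed this level, and over all tested genes 2.87%. Within 10 Mb, 7 of 86 genes were lower and 0 higher at this level, and within 30 Mb 14 of 215 were lower and 5 higher. D2hgdh is in each of these counts and Tmem37 in those within 30 Mb. Their calls led to this look, so the shares only describe the region. Within 10 Mb, 54 of 86 genes (62.8%) had a 95% interval inside ±0.58, against 62.1% of all tested genes.

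Besides D2hgdh and Bok, the other members lower at this level within 10 Mb of Per2 were Usp40, Sh3bp4, Pde6d, Ugt1a7c and Sphkap. None of these 5 passed after adjustment (limma, adjusted p = 1.00 each). Usp40, a deubiquitinating enzyme, was 5.57, 5.25 and 5.49 FPKM in WT libraries and 4.16, 4.22 and 4.63 FPKM in libraries labelled Per2-/-, a log2 fold change of -0.32. Pde6d, which carries prenylated proteins, had a log2 fold change of -0.19, and Sh3bp4, a regulator of endocytosis, one of -0.44. Ugt1a7c, a glucuronosyltransferase, had a log2 fold change of -0.87, but it shares exons with the other Ugt1a genes and its counts are uncertain. Sphkap, an anchor of protein kinase A, had one of -0.62.

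Most genes between Per2 and D2hgdh differed less than D2hgdh did, and Bok, which is one of them, differed as much. Of 26 tested genes that start between them, over 2.41 Mb, 0 were called in limma, 1 was lower and 0 were higher at an unadjusted p under 0.05, and that one was Bok. Their median log2 fold change was -0.05, and 19 of 26 had a 95% interval inside ±0.58. In 5 of 26 the libraries labelled Per2-/- lay lower without overlap and in 1 higher, which is 23.1% (9.98% of all tested genes).

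**Figure D3:**
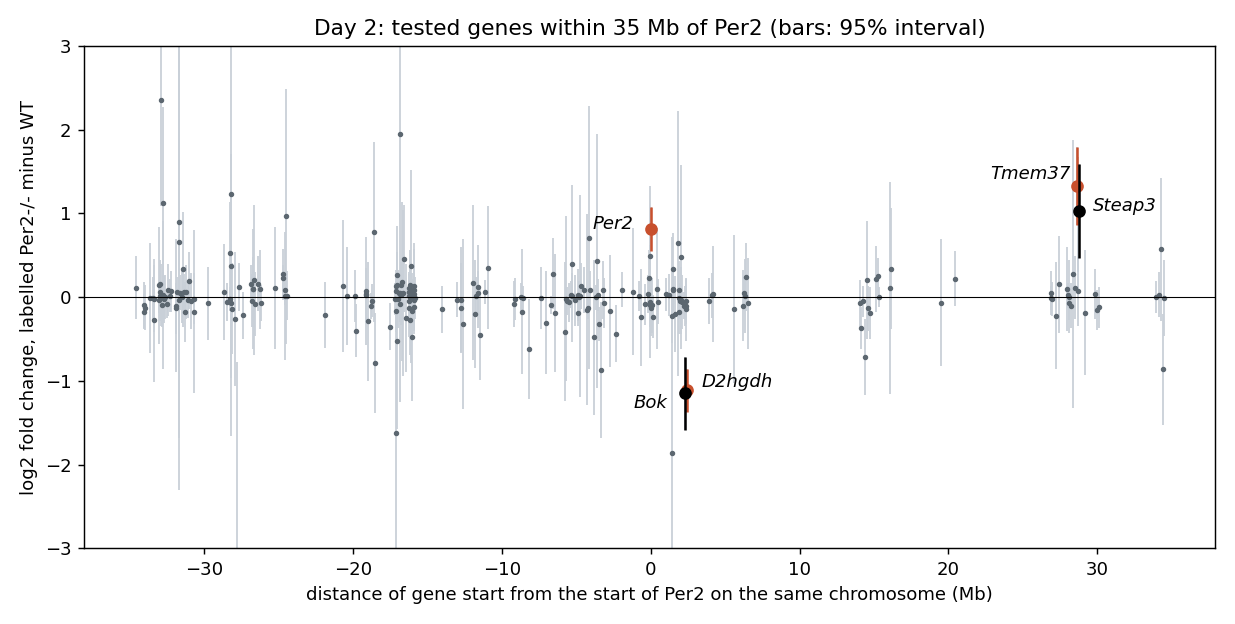
Log2 fold change on day 2 with its 95% interval (bars, cut off at ±3) for tested genes within 35 Mb of Per2, by the distance of their start from that of Per2 (Mb). Called genes are orange. Bok and D2hgdh lie together below 0 at 2.27 and 2.41 Mb, Tmem37 and Steap3 together above 0 near 28.7 Mb, and most other genes near 0.

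Beyond Per2, no clock gene was called. Of 25 genes listed, 22 were tested and 1 was called, Per2 itself, against 0.0268% of all tested genes. No other member passed even an unadjusted p under 0.05. The median log2 fold change was 0.03, and 16 of 22 members had a 95% interval inside ±0.58 (62.1% of all tested genes) and 20 of 22 one inside ±1 (82.1%). Such shares depend on level, and 76.0% of tested genes at 3 to 10 FPKM were inside ±0.58. The members' means over 27 libraries ran from 1.11 FPKM (Ciart) to 42.3 FPKM (Csnk1d). The intervals of Per2 and Bhlhe41 reached beyond ±1. Hlf, Npas2 and Rorb were too low to be tested. The labels give a day and no hour, and the methods name no clock synchronization for these libraries. Phase and amplitude of the clock were therefore not tested.

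Among the repressors of the loop, Per1 and Cry2 were apart by little. Per1, the nearest relative of Per2, was 4.76, 4.81 and 4.83 FPKM in WT libraries and 4.58, 4.60 and 4.46 FPKM in libraries labelled Per2-/-. Its groups did not overlap but differed by only -0.08 on the log2 scale (95% interval -0.36 to 0.21). Cry2 was 4.61, 5.28 and 4.25 FPKM against 4.13, 3.92 and 4.01 FPKM, again without overlap, with a log2 fold change of -0.22 (95% interval -0.44 to 0.00). Among all tested genes, 9.98% had groups that did not overlap. Cry1 and Per3 had log2 fold changes of 0.07 and 0.22.

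The activators, their stabilizing loop and the outputs were bounded unevenly. Clock had a log2 fold change of 0.03, Arntl one of -0.11, and Rora one of 0.00. Nr1d1 and Nr1d2, the REV-ERB repressors of Arntl, had -0.19 (95% interval -0.68 to 0.30) and 0.05. The outputs Dbp (5.24, 5.72 and 5.23 against 5.28, 6.32 and 5.12 FPKM), Tef, Nfil3 and Ciart had 0.04, 0.16, 0.07 and -0.11, and the 95% interval of Ciart was -0.60 to 0.38. The factors Bhlhe40 and Bhlhe41 had 0.07 and -0.38, and Bhlhe41 was the lowest member (1.53 to 2.57 against 1.35 to 1.95 FPKM, 95% interval -1.02 to 0.25).

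Csnk1d, Csnk1e and Btrc, whose products act on PER proteins, and Timeless had 95% intervals inside ±0.58. Csnk1d, at 44.4 to 47.5 FPKM in WT libraries, had a log2 fold change of 0.01 (95% interval -0.11 to 0.12). Csnk1e and Btrc had -0.04 and 0.05, and Timeless had 0.04.

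The E-box CACGTG was searched on both strands, which read the same, in the 250 bases before each RefSeq start (GRCm38.p6). A gene can have several such starts. Of 32851 such windows 6.02% held it. Of the 19 clock genes with a window, 5 held it in any of their windows: Bhlhe41, Ciart, Cry1, Per1 and Tef. The first share counts windows and the second genes, so they cannot be set against each other. These stretches are shown because they are the kind of site that CLOCK and BMAL1 bind and PER2 represses, and they belong to genes whose log2 fold changes ran from -0.38 to 0.16. Each is 30 bases, 5′ to 3′ on the strand of the gene, with the E-box in capitals. Ciart holds 3 and its farthest from the start is shown.
Per1, chr11:69098771-69098800, plus strand: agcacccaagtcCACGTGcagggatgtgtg
Cry1, chr10:85185097-85185126, minus strand: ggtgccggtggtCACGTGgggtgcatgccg
Tef, chr15:81802534-81802563, plus strand: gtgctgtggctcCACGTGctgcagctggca
Ciart, chr3:95882327-95882356, minus strand: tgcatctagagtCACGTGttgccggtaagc
Bhlhe41, chr6:145865556-145865585, minus strand: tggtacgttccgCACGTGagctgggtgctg
The windows of D2hgdh, Tmem37, Bok and Gal3st2 do not hold these letters. Per2 and mt-Tv were not matched to a window. A match in a window is only a description of its sequence.

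Of the delivered factors, Pou3f2, the gene of Brn2, was 228, 245 and 406 FPKM in WT libraries and 340, 770 and 484 FPKM in libraries labelled Per2-/-. The groups overlapped, and the log2 fold change was 0.83 (95% interval 0.17 to 1.49, adjusted p = 1.00 in limma). Transcripts of the viruses and of the cells' own genes were not told apart. Myt1l was only 0.524 to 1.12 against 0.794 to 1.00 FPKM, with a log2 fold change of 0.22.

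Of 21 neuronal markers, 18 were tested and 0 were called in limma, and none passed an unadjusted p under 0.05 in either direction. Their median log2 fold change was 0.01, with Ncam1 lowest (-0.44) and Ina highest (0.33). Tubb3, neuronal beta-III tubulin, was 92.9, 95.1 and 127 FPKM in WT libraries and 91.7, 101 and 92.5 FPKM in libraries labelled Per2-/-. Map2 was 4.26 to 6.51 against 5.39 to 6.85 FPKM, and Mapt, which encodes tau, stayed at or below 0.313 FPKM in all 6 libraries. Rbfox3, Syp and Nhlh2 were too low to be tested. The label of the samples is induced neurons. On day 2 the summed neuronal markers were 150 to 188 FPKM in WT libraries, and those of fibroblasts 4335 to 6248 FPKM.

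Macrophage markers were lower in the libraries labelled Per2-/- by their averages, but 0 of 26 tested were called in limma and 0 passed an unadjusted p under 0.05. All 26 had a negative log2 fold change, and the median was -0.51 (0.00 over all tested genes). In 8 of 26 the groups did not overlap and the libraries labelled Per2-/- were lower (5.69% over all tested genes). Only 1 of 26 had a 95% interval inside ±0.58, so most of these differences were poorly bounded. Summed over the markers, the WT libraries had 402, 530 and 640 FPKM and the libraries labelled Per2-/- had 242, 433 and 476 FPKM. These ranges overlap. Since bulk RNA was measured, fewer cells of a type and less RNA per cell cannot be told apart. The libraries labelled Per1-/- had 770 to 1532 FPKM. No marker of the 28 listed was at 0 in all 6 libraries.

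Among single macrophage markers, Csf1r, the receptor for M-CSF, was 14.8, 11.2 and 17.0 FPKM in WT libraries and 12.9, 7.49 and 11.5 FPKM in libraries labelled Per2-/-. Adgre1, which encodes F4/80, was 5.75 to 7.60 against 4.06 to 5.83 FPKM, and Itgam, which encodes CD11b, 0.887 to 1.63 against 0.664 to 1.38 FPKM. Ptprc, which encodes CD45, was 1.04 to 1.43 against 0.650 to 0.957 FPKM and did not overlap. The scavenger receptor Msr1 was the lowest (log2 fold change -0.72).

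Immune genes were also not called. Among 14 inflammatory, 25 interferon-induced and 14 complement genes tested, 0 passed limma's adjusted or unadjusted test. Tnf was 1.15, 0.565 and 1.19 FPKM in WT libraries and 1.08, 0.595 and 0.654 FPKM in libraries labelled Per2-/-. The inflammatory genes had a median log2 fold change of -0.16, from Cxcl10 (-0.65) to Cxcl13 (0.26). The interferon genes had 0.00, from Gbp2 (-0.21) to Isg20 (0.49). The complement genes had -0.12, from C1qc (-0.71) to C2 (0.38). In 4 of 14 the libraries labelled Per2-/- lay lower without overlap (5.69% over all tested genes). These 4 were C1qa, C1qb, C1qc and C3ar1, genes that macrophages express, and 3 of them are also on the macrophage list. The part of the macrophage markers in these values was not tested.

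Matrix genes leaned lower without a call. Of 31 collagen and matrix genes, 28 had a negative log2 fold change (7411 of all 14932 tested genes), and the median was -0.24. At an unadjusted p under 0.05 in limma, 2 were lower (1.56% of all tested genes), the fibronectin gene Fn1 (-0.40) and Col5a1 (-0.33). Fn1 lies on chromosome 1, at -19.8 Mb from the start of Per2, and is also counted above among the lower genes within 30 Mb. Col1a1, the main chain of type I collagen, was 1647, 2078 and 1208 FPKM in WT libraries and 1450, 1311 and 1301 FPKM in libraries labelled Per2-/-. The list ran from Mmp9 (-1.37) to Mmp3 (0.68), both matrix metalloproteinases. Of 18 fibroblast markers, 12 were negative with a median of -0.07, from Thy1 (-0.57) to S100a4 (0.51). At an unadjusted p under 0.05 in limma, 2 of 18 were lower (1.56% of all tested genes). These 2 were again Fn1 and Col5a1, which are on both lists.

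Smooth muscle and cholesterol genes each had 1 sign throughout. All 9 smooth muscle and pericyte markers were negative, with a median of -0.48, from Myh11 (-1.20, unadjusted p = 0.0156) to Cspg4 (-0.08). Their sums were 473 to 570 FPKM in WT libraries and 229 to 504 FPKM in libraries labelled Per2-/-. All 19 genes of cholesterol synthesis were positive, with a median of 0.24, from Sc5d (0.07) to Idi1 (0.38), and 0 passed an unadjusted p under 0.05. Their sums overlapped, at 258 to 346 FPKM against 235 to 411 FPKM. Of all 14932 tested genes, 7411 were negative and 7517 positive. No gene of either list was called in limma.

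**Figure D4:**
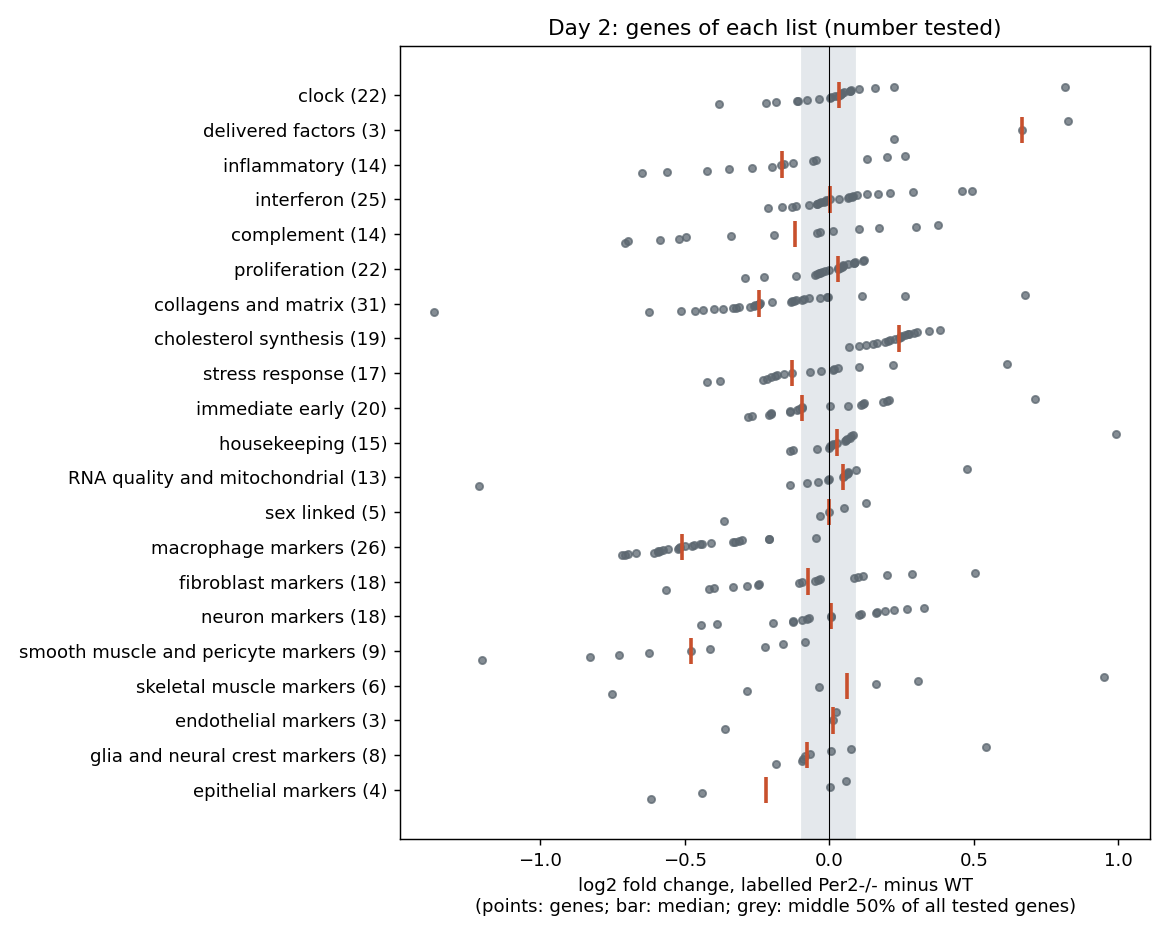
Log2 fold change on day 2 of each tested gene (points) by list, with the number tested in brackets and the median of the list as an orange bar. The grey band holds the middle 50% of all tested genes. Only Per2, the rightmost clock gene, was called among the listed genes, the medians of the macrophage (-0.51) and smooth muscle (-0.48) markers lie below the band, and that of cholesterol synthesis (0.24) above it.

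Proliferation genes differed little. Of 22 tested, 0 passed limma's adjusted or unadjusted test, 18 had a 95% interval inside ±0.58 (81.8%, against 62.1% of all tested genes), and all 22 one inside ±1. Such shares depend on level, and 86.3% of tested genes at 10 to 30 FPKM were inside ±0.58. The list ran from the helicase subunit gene Mcm6 (-0.29, mean 21.1 FPKM over 27 libraries) to the cyclin gene Ccnb2 (0.12, mean 21.0 FPKM). In the stress list of 17 genes, Nqo1, an antioxidant enzyme, had the highest log2 fold change (0.61, unadjusted p = 0.0425) and Trib3 the lowest (-0.42). The 20 immediate early genes ran from Egr2 (-0.28) to Fosb (0.71), with none at an unadjusted p under 0.05.

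The remaining lists held no call either. Of 15 housekeeping genes, 14 had a 95% interval inside ±0.58, from Tfrc (-0.14) upward. The exception was Gapdh (0.99), at 2.14, 1.46 and 1.68 FPKM in WT libraries and 2.20, 13.0 and 1.53 FPKM in libraries labelled Per2-/-. Gapdh has many near-identical pseudogenes, so its counts are uncertain. The mitochondrially encoded mRNAs were even, with 11 of 13 inside ±0.58. The exceptions were mt-Atp8 (-1.21, 0 to 1.14 FPKM) and mt-Atp6 (0.48), which was 65.9 FPKM in the library labelled Per2-/- replicate 2 and 23.4 to 27.9 FPKM in the other 5 libraries.

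Sex-linked genes showed both sexes in all 6 libraries. Xist was 31.5 to 35.5 FPKM in WT libraries and 15.5 to 42.9 FPKM in libraries labelled Per2-/-, and the Y-linked Eif2s3y was 7.35 to 8.54 against 5.36 to 11.5 FPKM. Skeletal muscle markers ran from Tnnt2 (-0.75) to Myog (0.95), glial and neural crest markers from Aqp4 (-0.19) to S100b (0.54), epithelial markers from Cldn4 (-0.62) to Krt18 (0.06), and endothelial markers from Egfl7 (-0.36) to Tek (0.02). No erythroid or lymphoid and mast cell marker reached the level for testing. Their summed values were at most 0.424 and 0.851 FPKM in the 6 libraries.

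The called and clock genes were then set aside. Of the other tested genes (14932 with those set aside), 89 lay higher and 166 lower in the libraries labelled Per2-/-. In these the groups did not overlap and the group log2 fold change was 0.58 or more in size. Some of these are on the other lists above, such as Msr1 and Mmp3. With no minimum difference, 4.29% of tested genes were higher and 5.69% lower without overlap. Of the 10 with the smallest p in each direction, 6 that were higher and 5 that were lower code for proteins, Steap3 and Bok among them. Sik1, a salt-inducible kinase, was 15.5, 12.8 and 16.7 FPKM in WT libraries and 11.5, 9.83 and 8.33 FPKM in libraries labelled Per2-/- (log2 fold change -0.60, adjusted p = 0.260). Adgrg1, the adhesion receptor GPR56, was 5.14, 4.69 and 5.63 FPKM against 3.83, 2.52 and 2.32 FPKM (-0.84, adjusted p = 0.371). Both were also lower by their averages on day 4 (-0.43 and -0.50) and near 0 on day 0 (-0.07 and 0.03). Fndc1 and the kinesin gene Kif19a had log2 fold changes of -0.92 and -1.12.

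Among those that were higher, Nts, the precursor of the neuropeptide neurotensin, was 1.08, 1.07 and 1.15 FPKM in WT libraries and 3.40, 6.91 and 4.05 FPKM in libraries labelled Per2-/- (1.96, adjusted p = 0.904). Its log2 fold change was 1.88 on day 4 and 0.19 on day 0. Pax9, a transcription factor, was 0.252 to 0.504 against 0.689 to 1.28 FPKM (1.14). H60b, a ligand of the receptor NKG2D, Dlk2, a relative of Dlk1, and B230217C12Rik had log2 fold changes of 1.02, 1.05 and 0.70. The others do not code for proteins or are of unknown coding status (Gm47155): Gm20493, Gm23966, Gm16276 and Gm47155 higher, and Gm24188, Gm20430, Gm6988, Gm18284 and 1110019D14Rik lower. Counts of pseudogenes are uncertain, since reads can be shared with near-identical copies.

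The rest of the transcriptome was described by how narrowly each difference was bounded, because a p that misses a threshold does not show likeness. Of 14932 tested genes, 9272 (62.1%) had a 95% interval wholly inside ±0.58 on the log2 scale, and 12266 (82.1%) one inside ±1. The median log2 fold change was 0.00 and the median size was 0.091. The estimate itself was under 0.58 in size for 94.4% of genes. Only 20 genes (0.134%) had a 95% interval wholly beyond 0.58, 8 higher and 12 lower, and 4 of these 20 code for proteins: D2hgdh, Tmem37, Bok and Nts. At an unadjusted p under 0.05 there were 196 genes higher and 233 lower (2.87%).

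How narrow the bounds were depended on the level. At a mean of 0.5 to 1 FPKM, 7.78% of genes had an interval inside ±0.58, and from 1 to 3 FPKM 35.9%. From 3 to 10 FPKM the share was 76.0%, from 10 to 30 FPKM 86.3%, from 30 to 100 FPKM 85.8%, and from 100 FPKM 80.2%. Below 3 FPKM, where Per2 and D2hgdh lie, differences of this size would therefore often not have been detectable.

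The most abundant genes were even. Of the 20 protein-coding genes with the highest level, 16 had a 95% interval inside ±0.58 and 19 one inside ±1, and the groups overlapped in all 20. Eef1a1, an elongation factor of translation, was 2743 ± 121 FPKM in WT libraries and 2761 ± 211 FPKM in libraries labelled Per2-/- (SD, n = 3 each), a log2 fold change of 0.01. Eef2 was 986 ± 17.4 against 996 ± 39.7 FPKM.

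Whole libraries were compared by distance and by principal components. Over log2(FPKM + 0.1) of all tested genes, the mean Euclidean distance was 70.0 between the groups and 70.2 within them (69.7 among WT libraries and 70.6 among libraries labelled Per2-/-). The ratio of the 2 was 0.998, and p was 0.800 in an exact permutation test (two-sided, 20 ways to assign the labels, smallest possible p 0.1). On days 0 and 4 the ratio was 0.987 and 1.02, both with an exact permutation p of 0.800. Between the libraries labelled Per1-/- and Per2-/- on day 2 the ratio was 1.09 (exact permutation p = 0.200), and between those labelled Per1-/- and WT 1.01 (exact permutation p = 0.600).

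In a principal component analysis of the same 6 libraries, the first component (27.6% of the variance) did not separate the groups. The second (20.4%) did, with WT libraries at 8.86, 17.5 and 30.9 and libraries labelled Per2-/- at -12.0, -25.3 and -19.9. No test was made on the components.

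Any pair of these libraries correlated at 0.954 to 0.971 (Pearson's r over genes, which are no replicates). Within a group, the chi-square of the fragments divided by its degrees of freedom was 9.66 to 28.9, so replicates differed by more than sampling noise and were counted separately. Across genes, the group means had a Pearson's r of 0.987 and a Spearman's rho of 0.992, with no p since the genes share the libraries.

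**Figure D5:**
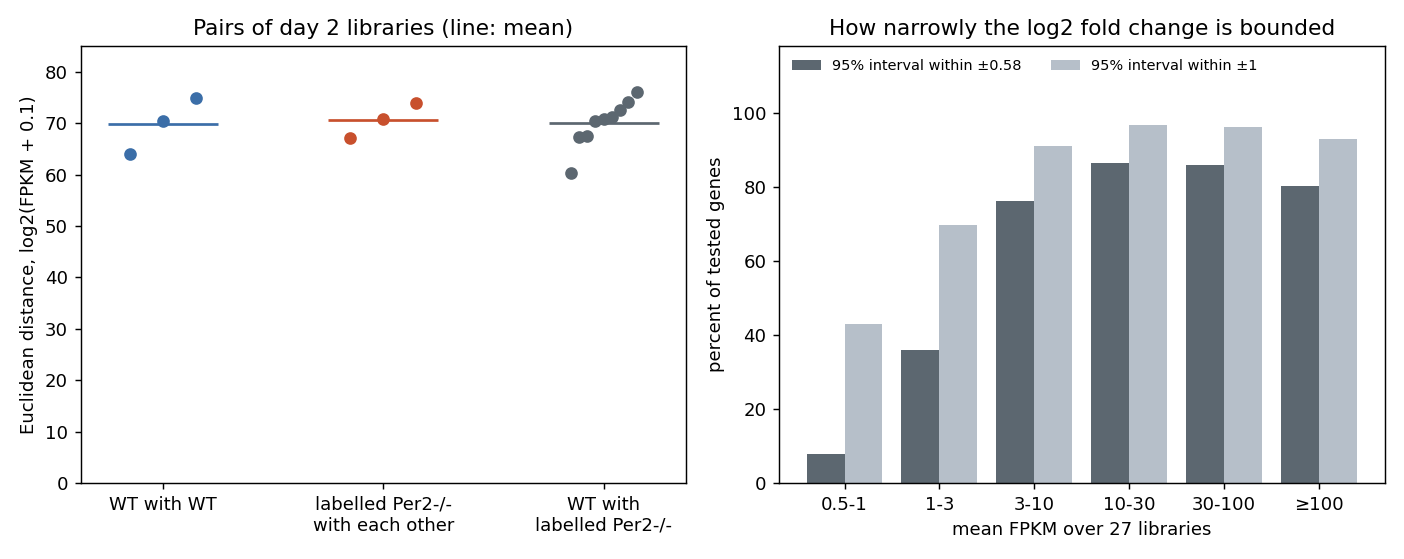
Left, Euclidean distance over log2(FPKM + 0.1) for each pair of day 2 libraries (points), with the mean as a line: the 9 pairs between groups have the same mean distance, near 70.0, as the pairs within a group. Right, percent of tested genes whose 95% interval of the log2 fold change lies inside ±0.58 or ±1, by mean FPKM over 27 libraries: the share inside ±0.58 is 7.78% at the lowest level and 86.3% from 10 to 30 FPKM.

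Set against cells labelled Per1-/- on day 2, 11 genes (0.0737%) were called in the cells labelled Per2-/-, 2 higher (0.0134%) and 9 lower (0.0603%). The 2 higher were Tmem37 and mt-Tv, and D2hgdh was among those lower. Tnfrsf11a, the receptor RANK, was lower than in cells labelled Per1-/- (limma, adjusted p = 0.0352). It lies on chromosome 1, 14.4 Mb from the start of Per2, and had a log2 fold change of -0.72 against WT without a call. Both comparisons rest on the same libraries labelled Per2-/-. Between cells labelled Per1-/- and WT on day 2, 1 gene was called (0.0067%). These are counts of calls in this fit, and genes that were not called are not shown to be alike. The authors' own DESeq2 test need not give the same counts. Over time, the difference between the label Per2-/- and WT changed from day 0 to day 2 for 0 genes in limma (434 genes, or 2.91%, at an unadjusted p under 0.05, 0 with voom weights) and from day 4 to day 2 for 1 gene, mt-Tv.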

How the data were processed

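Bulk RNA-seq libraries (27, 3 per genotype and day) were grouped by genotype, day, and replicate number in the sample labels. Per the methods and the submitters' processing notes, the authors selected poly-A RNA, made nondirectional libraries, aligned paired-end reads to GRCm38 (mm10) with HISAT2 2.0.5, counted them per gene with featureCounts 1.5.0-p3, used DESeq2 for their own tests, and deposited FPKM for 54532 genes. Without strand, antisense partners cannot be told apart. With the gene lengths, 100% of the deposited FPKM values gave whole fragments (tolerance 0.01).

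Values were converted to log2(FPKM + 0.1), so fold changes of low genes are understated. Genes averaging 0.5 FPKM or more across the 27 libraries (14932) were tested with limma 3.58.1 (R 4.3.3; lmFit, contrasts.fit, eBayes with trend; 9 groups; no block; 7 contrasts). P-values were Benjamini-Hochberg adjusted over all tested genes of a contrast. A gene was called if its adjusted p did not exceed 0.05 and it differed by 0.58 or more on the log2 scale. Intervals are 95%, and floors of 3 fragments cover counting error only. The scripts were tested on simulated data. Summaries used Python 3.11.15, numpy 2.4.6 and pandas 2.3.3, and figures matplotlib 3.10.9.

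Genes were named by a rule: called genes, clock genes, the 10 further genes per direction with the smallest p among those with groups that did not overlap and differed by 0.58 or more (log2), genes within 10 Mb of Per2 at an unadjusted p under 0.05, 12 reprogramming and macrophage genes, and the extremes of each list. Others were chosen after their values were seen, and some genes under the rule are not reported here. The comparison, members, and lists were chosen with earlier results of these data known. Alternatives were other pseudocounts, filters, scalings, fits, and voom weights on fragments, a replicate block, and each library left out.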

Additional observations from a re-analysis of the deposited data

Results flagged for a closer look

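The difference between the label Per2-/- and WT changed between days for mt-Tv, the mitochondrial tRNA for valine. The difference of day 2 minus that of day 4 was 8.57 on the log2 scale (limma, interaction contrast, adjusted p = 0.0118). The libraries labelled Per2-/- were higher on day 2, with 5, 2 and 7 fragments against 0, 0 and 0, and lower on day 4, with 0, 0 and 0 against 2, 2 and 1. The fitted value depends on the pseudocount, since 1 group of each day is at 0. With a pseudocount of 1, a minimum mean of 1 FPKM, or voom weights, 0 genes passed this test.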

How the results depend on the processing

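The count of 4 called genes on day 2 became 1 with a pseudocount of 1, 7 with no filter on low values, 0 in a fit of the 6 libraries alone (755 genes at an unadjusted p under 0.05), 7 with TPM scaling, 2 with voom weights, 2 without the variance trend, and 167 by unadjusted p with the same fold. Leaving out each library in turn gave 1 to 2 genes. D2hgdh was called in each of those 6 fits, and 19 of 21 alternatives kept its call; the others were the 6-library fit and the block (adjusted p = 0.112 and 0.105). Per2 kept its call in 11 of 21 alternatives, among the libraries left out only without WT replicate 2, Tmem37 in 8 of 21, and mt-Tv in 5 of 19. Per2, Tmem37 and mt-Tv kept their direction in each, with adjusted p up to 0.423, 0.441 and 0.454, and the cause of the lost calls was not tested. The tallies of kept calls, that of D2hgdh included, count the use of unadjusted p and of no fold minimum. Both only loosen the rule on the main fit, so no call could be lost there. In fits chosen after seeing the data, 3 genes were called among genes of at least 200 bases and 3 in a fit of 18 WT and Per2-labelled libraries.

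WT and Per2-labelled libraries with the same number did not all deviate together (r = 0.19, -0.04 and 0.05), so the numbers were not taken as pairs. With a replicate block in the 9 libraries of day 2, 0 genes were called (737 at an unadjusted p under 0.05), and not every library correlated best with its own number.

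With no filter, 16897 genes were bounded within 0.58 and 25955 within 1. Leaving out a library gave 8351 to 8518 and 11662 to 11735 genes. The ratio of distances crossed 1 without WT replicate 1 (1.0004) and without Per2-labelled replicate 1 (1.01), and ran from 0.986 to 1.01 over the libraries left out. It stayed below 1 in the other alternatives run. Day 0 gave 5 genes with TPM, day 4 gave 2 with a pseudocount of 1 and 2 with TPM, the label Per2-/- against Per1-/- gave 7 with TPM and 7 with voom weights, Per1-/- against WT gave 2 with a pseudocount of 1 and 0 with TPM, and the change from day 4 gave 0 with a pseudocount of 1, 0 with a mean of at least 1 FPKM, 0 with voom weights, and 2 with TPM.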
